A study of Drosophila melanogaster with 4 samples.

Results

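Chromosome arm 3L is the left arm of the third chromosome of Drosophila melanogaster. Its euchromatin, the gene-rich part outside the chromatin around the centromere, was examined here for binding of ORC2 in whole embryos. The members were the called ORC2 peaks on 3L whose midpoint lay at or below position 20500000 in FlyBase release 5.1 coordinates. They numbered 258 of 1386 peaks in replicate 1, 262 of 1600 in replicate 2 and 97 of 540 regions in the series-level list. The 3 lists were kept apart and set against X, 2L and 3R.

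ORC2 belongs to the origin recognition complex (ORC), a set of proteins that binds DNA and loads the replicative helicase before S phase. Flies have no single DNA sequence that defines an origin, and ORC in this species is known to favour open chromatin, such as active promoters. More sites are bound and licensed than are used in any one cell cycle, so an ORC2 site is a place where replication can start, not one where it always does.

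The study held 2 ORC2 ChIP samples and 2 input DNA samples from mixed embryos of 0 to 24 h. ChIP used a crude rabbit polyclonal serum raised against full-length ORC2 protein. No strain or genotype is given, and the input samples have no file analysed here. Mixed whole embryos hold many cell types and cycle states, from fast early divisions to cells that have stopped dividing, so each list is an average over all of them. The ChIP samples are called replicates 1 and 2 after their numbered extractions; the labels leave unsaid whether each had its own embryo collection, so differences between them may be technical.

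For every peak the lists hold its end positions and a score, the authors' own value, with no stated unit. On 3L euchromatin, all 97 series-level regions had the outer ends of the overlapping replicate peaks as their ends and the mean of those peaks' scores as their score, within 1e-05. A series-level region is therefore a pair of overlapping replicate peaks, and is called a shared region below. The lists hold no read counts, so depth is unknown. Genes and sequence at the peaks are not given, since no annotation or genome of release 5.1 was used here.

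ORC2 sites on 3L euchromatin were short and covered little of the arm, as they did on the parts of X, 2L and 3R compared below. The replicate 1 peaks covered 42.2 kb, or 0.207% of a span of 20.4 Mb, and the replicate 2 peaks covered 32.2 kb, or 0.158%. On X, 2L and 3R, peaks covered 0.235%, 0.229% and 0.186% in replicate 1 and 0.167%, 0.169% and 0.136% in replicate 2. The median peak was 130 bp wide in replicate 1, with quartiles of 88.25 and 214 bp, and 94.5 bp in replicate 2, with quartiles of 51.0 and 147.75 bp. The median width on X, 2L and 3R was 151.5, 148 and 136 bp in replicate 1 and 92, 97 and 88 bp in replicate 2. Shared regions on 3L were 73 to 836 bp wide, with a median of 226 bp, against 242.5, 238 and 252 bp on X, 2L and 3R. Library fragments were selected at 150 to 200 bp, so the typical peak of either replicate was no wider than about 1 fragment. Peaks narrower than a 36 nt read made up 21 of the 258 peaks in replicate 1 (8.14%) and 53 of the 262 in replicate 2 (20.2%), and no shared region on 3L was that narrow. On X, 2L and 3R, such peaks made up 8.73%, 7.33% and 11.2% in replicate 1 and 18.5%, 20.5% and 19.0% in replicate 2.

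At the limit of the rule, the lists held these neighbours. The last shared region inside it, at 20466443 to 20466544, scored 2.22, and the first outside it, at 21002001 to 21002212, scored 2.14. In replicate 1, the last peak inside, at 20466443 to 20466544, scored 2.08, against 2.89 for the first outside, at 20785905 to 20785971. In replicate 2, the last one inside, at 20466475 to 20466494, scored 2.36, against 1.95 for the first outside, at 20510639 to 20510696, which is 10.7 kb beyond the limit. Beyond the limit, 3L held 22 peaks of replicate 1, 29 of replicate 2 and 10 shared regions over 2.44 Mb.

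The first comparison asked whether ORC2 sites were more or less dense on 3L than on other arms. They were about as dense. X, 2L and 3R were each taken without the 2.44 Mb next to the centromere, the length that the rule leaves off 3L. Replicate 1 had 12.7 peaks per Mb on 3L (exact Poisson 95% interval 11.2 to 14.3), against 12.8 on X, 11.9 on 2L and 10.9 on 3R. Replicate 2 had 12.9 peaks per Mb on 3L (11.4 to 14.5), against 14.3 on X, 13.99 on 2L and 12.5 on 3R. Shared regions numbered 4.76 per Mb on 3L (3.86 to 5.81), against 5.097 on X, 5.33 on 2L and 3.75 on 3R.

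Against the 3 arms together, the density on 3L was 1.07 times as high in replicate 1 (0.929 to 1.24, 95% interval; p = 0.322, two-sided exact binomial test) and 0.953 times as high in replicate 2 (0.827 to 1.10; exact binomial p = 0.509). The ratio was 1.03 for shared regions (0.808 to 1.295; exact binomial p = 0.814). Of the 9 comparisons with single arms, the ratio farthest from 1 was that of shared regions against 3R, at 1.27 (0.948 to 1.70; exact binomial p = 0.11, adjusted p = 0.495 by Benjamini-Hochberg over the 9). No adjusted p of the 9 was lower. All tests and intervals take each peak as an independent draw. Peaks that cluster are not, so the p-values are too small and the intervals, which cover counting error only, too narrow.

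**Figure D1:**
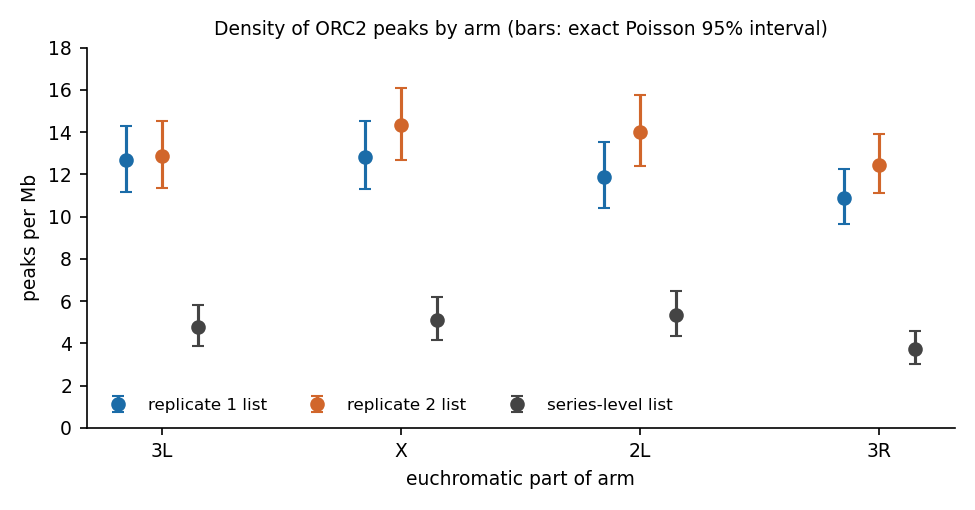
Points give ORC2 peaks per Mb (y axis) by arm (x axis) in the replicate 1, replicate 2 and series-level lists, with bars for the exact Poisson 95% interval. 3L is taken up to the limit of the rule, and X, 2L and 3R without the 2.44 Mb next to the centromere. That cut matches the length left off 3L and is not a known chromatin boundary of those arms. The points of 3L, at 12.7, 12.9 and 4.76 per Mb, have intervals that overlap those of every other arm in the same list.

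The second comparison asked how many 3L sites were found in both samples. Of the replicate 1 peaks on 3L, 97 of 258 overlapped a replicate 2 peak by 1 bp or more (37.6%, Wilson 95% interval 31.9 to 43.6), where the share over the whole list was 39.0%. Of the replicate 2 peaks, 98 of 262 met a replicate 1 peak (37.4%, 31.8 to 43.4), where the share over the whole list was 34.1%. Both shares on 3L lay near their background. Relative to X, 2L and 3R together, the share on 3L was 1.75 percentage points lower in replicate 1 (a difference of -1.75, Newcombe 95% interval -8.43 to 5.202) and 2.58 points higher in replicate 2 (-3.92 to 9.33). Both intervals include 0.

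Wide 3L peaks were met by the other replicate more often than narrow ones. In replicate 1, 6 of 68 peaks in the narrowest of 4 equal classes of the list, up to 90 bp, had a partner (8.82%, 4.11 to 17.9), against 37 of 52 in the widest class, over 231 bp (71.2%, 57.7 to 81.7). In replicate 2 the shares were 13.8% (7.46 to 24.3) for 65 peaks up to 49 bp and 63.5% (51.1 to 74.3) for 63 peaks over 151 bp. The intervals of the narrowest and widest classes did not overlap in either replicate, and in each of the 4 classes the 3L interval overlapped that of X, 2L and 3R together. Of the peaks narrower than a read, 0 of 21 were matched in replicate 1 and 6 of 53 in replicate 2.

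**Figure D2:**
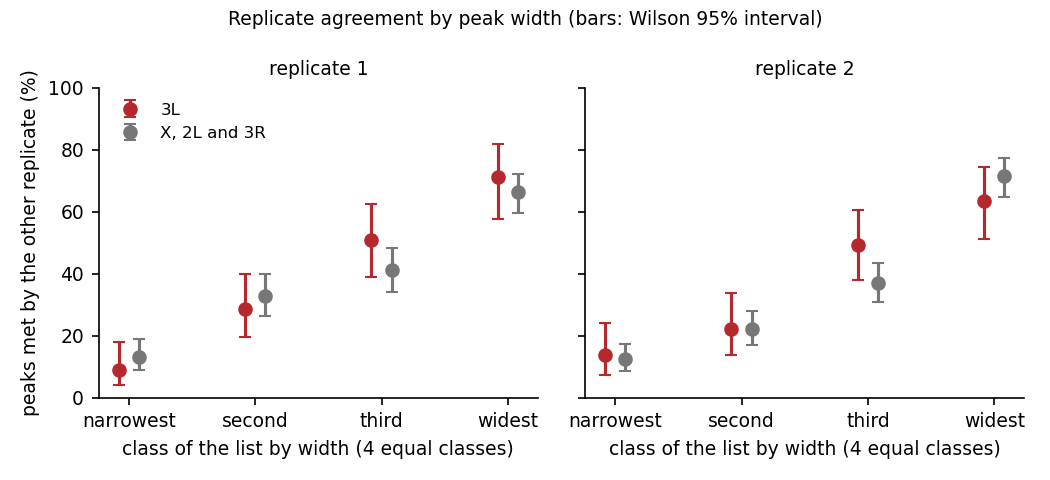
Points give the percentage of peaks met by at least 1 bp of a peak of the other replicate (y axis) for 3L and for X, 2L and 3R together, in 4 equal classes of the list by width (x axis, narrowest to widest), with bars for the Wilson 95% interval. On 3L the share runs up to 71.2% in replicate 1 and 63.5% in replicate 2 for the widest class, and the 3L and other-arm intervals overlap in all 4 classes.

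Most unmatched 3L peaks had no partner nearby. Of the 161 unmatched peaks of replicate 1, 27 (16.8%) had a replicate 2 peak within 1 kb and 70 (43.5%) had one within 10 kb, with a median distance of 13.8 kb and a largest one of 320.03 kb. Of the 164 unmatched peaks of replicate 2, 29 (17.7%) had a replicate 1 peak within 1 kb and 74 (45.1%) within 10 kb, with a median of 13.7 kb. On X, 2L and 3R together, 22.8% of the unmatched replicate 1 peaks and 19.6% of those of replicate 2 had a partner within 1 kb.

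The unmatched peaks with the highest scores were mostly far shorter than a fragment. In replicate 1, the highest lay at 8308179 to 8308193, was 15 bp wide, scored 4.47 and had its nearest replicate 2 peak 80.0 kb away. The next, at 16403704 to 16403840, scored 4.07 and lay 0.82 kb from the nearest replicate 2 peak, between shared regions at 16401853 to 16402193 and 16404661 to 16404984. The third, at 13922021 to 13922091, scored 3.91 and lay 8.73 kb away. The second of these thus lay between 2 shared regions, and the first stood farthest from any replicate 2 peak. In replicate 2, the highest lay at 800059 to 800061, was 3 bp wide and scored 6.06, with the nearest replicate 1 peak 71.8 kb away. The next were at 10659926 to 10659947 (22 bp, score 4.48, 12.1 kb away) and at 11423467 to 11423475 (9 bp, score 4.46, 122.7 kb away). All 3 of replicate 2 were narrower than a read.

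Shared regions differed in how far the calls of the replicates coincided. In 96 of the 97 shared regions, 1 peak of each replicate made up the region, and the remaining one, at 10732415 to 10732835, held 2 peaks of replicate 2. The centres of the replicate calls lay a median of 27 bp apart, at most 273 bp, and over 100 bp in 10 regions. These pairs were chosen by their overlap, which by itself keeps the offset small, so it is given as a description. A median of 58.9% of a region's length was called in both replicates, with a range of 1.81% to 97.0%. The replicate 1 call was the wider one in 68 regions and the replicate 2 call in 28, with medians of 213 and 139 bp. The replicate 2 call lay inside the replicate 1 call in 33 regions and the reverse held in 14. At the low end of agreement, the region at 12461148 to 12461423 rested on 5 shared bases, so 1 bp of overlap admitted some pairs whose calls barely touched.

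The score has a scale of its own on each arm, which bears on every comparison of scores. Of the 258 replicate 1 scores on 3L, 114 (44.2%) recurred to every printed digit elsewhere in the list, and for 113 of them every recurrence was on 3L. In replicate 2, 111 of 262 scores on 3L recurred (42.4%), and for all 111 every recurrence was on 3L. The other arms also held many recurring scores. On X, 2L and 3R the shares were 37.7%, 31.9% and 39.5% in replicate 1 and 52.3%, 45.8% and 54.7% in replicate 2. The most frequent score of replicate 1 on 3L, 3.07259, occurred 10 times in that list, all of them in 3L euchromatin, and the most frequent of replicate 2, 2.59905, occurred 12 times there. A base value was sought between 0.7 and 0.9 for each arm such that scores equal the base times a ratio of whole numbers with a denominator up to 20, within a relative 5e-06. With the 3L base of 0.768, this held for 142 of the 258 replicate 1 scores on 3L (55.0%). With the bases found for X, 2L and 3R, it held for 1, 0 and 1 of the same scores. In replicate 2 the 3L base was 0.866 and held for 152 of 262 scores (58.0%), against 1, 1 and 3 with the bases of X, 2L and 3R. Scores on X, 2L and 3R fitted the base of their own arm about as often. The shares were 59.9%, 46.1% and 56.2% in replicate 1 and 65.1%, 53.5% and 52.5% in replicate 2.

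The 3L base was the highest of the 4 arms in both replicates. In replicate 1 the base of X was 94.4% of that of 3L, that of 2L 99.6% and that of 3R 93.5%. In replicate 2 these were 96.9%, 98.1% and 94.8%. How the base arises is not given in the sources used here, and a base is fixed only up to a simple whole-number factor. No number of reads was derived from these ratios.

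Median scores of 3L peaks sat close to those of other arms and changed order with this scale. In replicate 1 the median was 2.27 on 3L, with quartiles of 1.93 and 2.598, against 2.30 on X, 2.14 on 2L and 2.15 on 3R. In replicate 2 it was 2.46 on 3L, with quartiles of 2.07 and 2.95, against 2.62 on X, 2.42 on 2L and 2.33 on 3R. Divided by each arm's base, the replicate 1 median was 2.96 on 3L, against 3.18 on X, 2.80 on 2L and 3.0 on 3R, and the replicate 2 median was 2.84 on 3L, against 3.13 on X, 2.84 on 2L and 2.84 on 3R. The higher raw median of 3L relative to 3R was thus not present after division, in either replicate, while the lower median relative to X was present both ways.

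Between replicates, scores of the same 3L site agreed loosely. Replicate 2 scored higher in 68 of the 97 regions and replicate 1 in 29, with a median difference of 0.47 (replicate 2 minus replicate 1) and an SD of 0.886. After division by the base of 3L in each replicate, replicate 2 was higher in 58 and replicate 1 in 39. Over the 97 regions, Pearson's r between the replicate scores was 0.33 and Spearman's rho 0.33. These describe pairs that share their arm and caller, and carry no p. The replicate spread gives an SD of 0.626 for the difference between 2 region means. Within 2 such SDs (1.25) of the highest region lay 7 others, so the order among the first 8 is not resolved by these data. This SD pools all 97 regions, whereas the replicate SDs of the first 8 ran from 0.216 to 3.19, the latter in the highest region. Regions beyond the first 8 may therefore also not be resolved from it.

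The highest region by mean score was a site at 11249401 to 11249536, with scores of 2.30 in replicate 1 and 6.82 in replicate 2. The second, at 18665542 to 18665640, scored 3.07 in replicate 1 and 5.85 in replicate 2, and its 2 calls, of 98 and 97 bp, shared 97.0% of the region. The first rests on replicate 2 alone for its rank: its replicate 1 score stood at percentile 58.7 of that list and ranked 34 among the 97 regions. The second stood at percentile 90.4 in replicate 1 and 99.4 in replicate 2. Percentiles here and below are over the whole list, all arms, on the undivided score. The base of 3L is the highest of the arms compared, and percentiles after division were not computed.

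The next pair were neighbours and among the widest regions. The region at 11287609 to 11288334, 726 bp wide, scored 3.296 in replicate 1 and 4.66 in replicate 2. The region at 11288708 to 11289237, 530 bp wide and 373 bp further on, scored 3.66 in replicate 1 and 3.96 in replicate 2. Both stood at percentile 93.1 or above in both lists on the undivided score. Both were among the first 10 of the 97 shared regions in each replicate, unmatched peaks left aside. Together they span 1.63 kb and hold 2 peaks of each replicate, all matched.

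The fifth region, at 17005619 to 17005767, scored 2.56 in replicate 1 and 5.01 in replicate 2. The sixth, at 18233736 to 18233883, scored 3.07 in replicate 1 and 4.47 in replicate 2. The ninth, at 6736748 to 6736943, scored 2.05 in replicate 1 and 4.55 in replicate 2, and was the only one of the 10 on the telomere side of position 10.25 Mb. The other three were the regions at 17583624 to 17584137 (2.70 in replicate 1 and 4.23 in replicate 2), 17569578 to 17569952 (3.07 in replicate 1 and 3.76 in replicate 2) and 17559696 to 17559908 (2.45 in replicate 1 and 3.95 in replicate 2). All of the 10 scored higher in replicate 2 on the undivided scale. After division by the base, 9 did, and the region at 11288708 to 11289237 stood at 4.76 in replicate 1 and 4.57 in replicate 2. Ranked among the 97 shared regions alone, 9 of the 10 were in the first 10 of replicate 2 and 5 in the first 10 of replicate 1, and 4 regions were in the first 10 of both. The replicate 1 score of 3.07 in 3 of these regions is the recurring value 3.07259, so they tie.

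**Figure D3:**
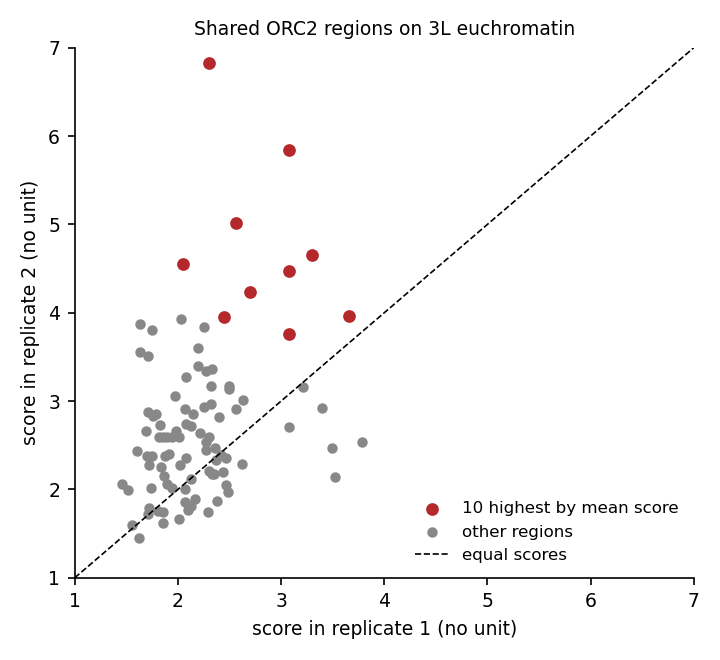
Each point is 1 of the 97 shared regions on 3L euchromatin, with its score in replicate 1 (x axis, no unit) and in replicate 2 (y axis, no unit); the 10 highest by mean score are marked and the dashed line stands for equal scores. All 10 marked points lie above the line on this undivided scale, and 68 of the 97 regions scored higher in replicate 2.

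Width did not track the score among shared regions (Spearman's rho -0.01 across 97 regions, given without p). The widest region, at 12685844 to 12686679, was 836 bp wide and scored 2.27 in replicate 1 and 2.45 in replicate 2. On the undivided score this was near the middle of both lists. The region at 10729919 to 10730634, 716 bp wide, scored 2.13 in replicate 1 and 2.12 in replicate 2. The region at 11546067 to 11546710, 644 bp wide, scored 1.91 in replicate 1 and 2.397 in replicate 2. These 3 were called widely in both replicates, by 398 bp or more in each. The region at 627930 to 628490, 561 bp wide, was not: its calls of 494 and 82 bp shared 15 bp, and it scored 2.14 in replicate 1 and 2.86 in replicate 2.

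Shared ORC2 regions on 3L lay mostly on the centromere side of the stretch. Of the 97 regions, 64 lay beyond its midpoint at 10.25 Mb (66.0%, Wilson interval 56.1 to 74.6) and 33 before it. In replicate 1, 146 of 258 peaks did so (56.6%, 50.5 to 62.5) and in replicate 2, 178 of 262 (67.9%, 62.1 to 73.3). The replicates differed in this share by 11.3 points (replicate 1 minus replicate 2 was -11.3, Newcombe interval -19.5 to -3.02). The corresponding share of shared regions was 43.0% on X, 46.2% on 2L and 57.9% on 3R. The difference, 3L minus the other arm, was 22.98 points against X (9.08 to 35.7), 19.8 against 2L (6.09 to 32.5) and 8.08 against 3R (-5.57 to 21.3), so it left out 0 against X and 2L only. In replicate 1 the difference was 10.2 points against X (1.49 to 18.6), 16.1 against 2L (7.21 to 24.6) and 3.69 against 3R (-4.73 to 12.03). In replicate 2 it was 18.5 against X (10.2 to 26.4), 21.8 against 2L (13.4 to 29.7) and 9.71 against 3R (1.79 to 17.4). Without the most crowded 1 Mb of 3L, from 17000001 to 18000000, the share of shared regions was 59.3% (48.4 to 69.3). Its difference was then 16.3 points against X (1.62 to 29.9) and 13.1 against 2L (-1.37 to 26.8). Without this window, the interval also came to include 0 against X in replicate 1 (5.30 points, -3.59 to 14.1) and against 3R in replicate 2 (5.87 points, -2.38 to 13.9). The window lies on the centromere side and was left out of 3L only, with the split kept at 10.25 Mb. The share on 3L therefore had to fall, and a lost call cannot show that this window decided a difference. The other arms were split at the middle of their span between outermost peaks. For 3L that point is 10.314 Mb, and no peak of any list lay between it and 10.25 Mb, so both splits give the same counts. The split at the midpoint was chosen after the counts along the arm had been seen.

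In windows of 1 Mb, counts of shared regions ranged from 0 to 16 with a median of 4. The windows end at position 20000000, so they leave out 5 peaks of replicate 1, 7 of replicate 2 and 3 shared regions. Replicate 1 had 5 to 26 peaks per window with a median of 10.5, and replicate 2 had 1 to 28 with a median of 11.5. The window from 17000001 to 18000000 had the highest count in replicate 1, with 26 peaks, and among shared regions, with 16, and held 28 peaks of replicate 2. The next window, from 18000001 to 19000000, tied with it in replicate 2, with 28 peaks, and held 16 peaks of replicate 1 and 8 shared regions. On the telomere side, the window from 2000001 to 3000000 held 8 peaks of replicate 1, 1 of replicate 2 and no shared region.

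The replicates parted in several windows. The window from 16000001 to 17000000 held 25 peaks of replicate 1, of which 4 were matched, and 10 of replicate 2. The window from 19000001 to 20000000 held 5 peaks of replicate 1 and 18 of replicate 2, with 2 shared regions. Over the 20 windows, the counts of the replicates had a Pearson's r of 0.47 and a Spearman's rho of 0.43, which describes windows of 1 arm and carries no p.

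**Figure D4:**
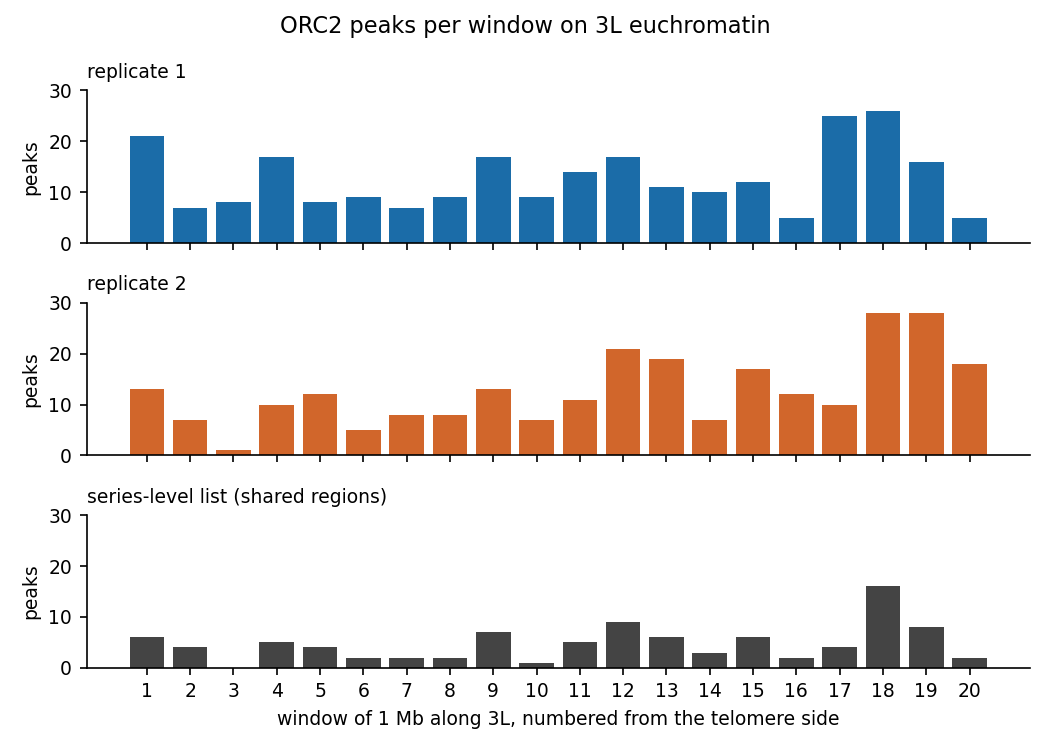
Bars give the number of ORC2 peaks (y axis) in each of 20 windows of 1 Mb on 3L euchromatin, numbered from the telomere side (x axis), in replicate 1, replicate 2 and the series-level list. The windows end at position 20000000, short of the limit of the rule. Window 18 holds 26 peaks of replicate 1, 28 of replicate 2 and 16 shared regions, the highest count of each list (a tie with window 19 in replicate 2), and window 3 holds no shared region.

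Long stretches of 3L had no shared region. The median gap between neighbouring shared regions was 85.3 kb, and 13 of the 96 gaps were longer than 500 kb. The longest ran from 1668846 to 3070619, or 1.40 Mb, and held 12 peaks of replicate 1 and 4 of replicate 2, none of which overlapped. At the other end, 6 gaps were shorter than 1 kb and the shortest was 232 bp, between the regions at 14402562 to 14402731 and 14402964 to 14403111.

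Of the 97 shared regions, 27 had another within 10 kb (27.8%, Wilson interval 19.9 to 37.5). The count was 37 of 100 regions on X, 52 of 104 on 2L and 17 of 95 on 3R. The difference, 3L minus the other arm, was -22.2 points against 2L (Newcombe interval -34.5 to -8.68), -9.16 against X (-21.8 to 3.89) and 9.94 against 3R (-1.99 to 21.5). The difference from 2L did not hold once regions within 1 kb of each other were joined, when it was -10.9 points (-23.5 to 1.97). Joined within 10 kb, the 97 regions on 3L made 80 groups, of which 70 were single regions, 5 were pairs, 4 held 3 regions and 1 held 5.

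The group of 5 ran from 17556732 to 17571146, over 14.4 kb, and its regions had mean scores of 2.68 to 3.41, against a median of 2.36 over all 97. At 17556732 to 17557230 the scores were 3.22 in replicate 1 and 3.17 in replicate 2. The next region, at 17559696 to 17559908, scored 2.45 in replicate 1 and 3.95 in replicate 2. The third, at 17565448 to 17565624, scored 2.496 in replicate 1 and 3.14 in replicate 2, with a replicate 1 call of 36 bp inside a replicate 2 call of 177 bp. These 3 fill the telomere-side part of the group, and between the second and the fourth region lay 2 further replicate 2 peaks with no partner, at 17563476 to 17563478 and 17566931 to 17567140. The fourth region, at 17569578 to 17569952, scored 3.07 in replicate 1 and 3.76 in replicate 2, from calls of 365 bp in each that were offset by 10 bp. The fifth, at 17570929 to 17571146, scored 2.08 in replicate 1 and 3.27 in replicate 2. All 5 replicate 1 peaks in the group were matched, against 5 of the 7 replicate 2 peaks.

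The same neighbourhood held 4 more shared regions towards the centromere. A single region at 17583624 to 17584137 lay 12.5 kb beyond the group, and a group of 3 followed from 17600069 to 17612617, with mean scores of 2.45, 2.82 and 2.25. Its middle region, at 17604944 to 17605490, was 547 bp wide and had calls of 543 bp in replicate 1 and 523 bp in replicate 2. Of the other groups of 3, the one at 10729919 to 10733700 covered 1666 bp of 3.78 kb with mean scores up to 2.40. The one at 14402562 to 14403653 covered 532 bp of 1.09 kb, and the one at 17955479 to 17966380 held 6 peaks of each replicate, of which 3 in each were unmatched. Groups on 3L thus included both tight runs over 1 to 4 kb and looser rows over 10 to 15 kb.

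**Figure D5:**
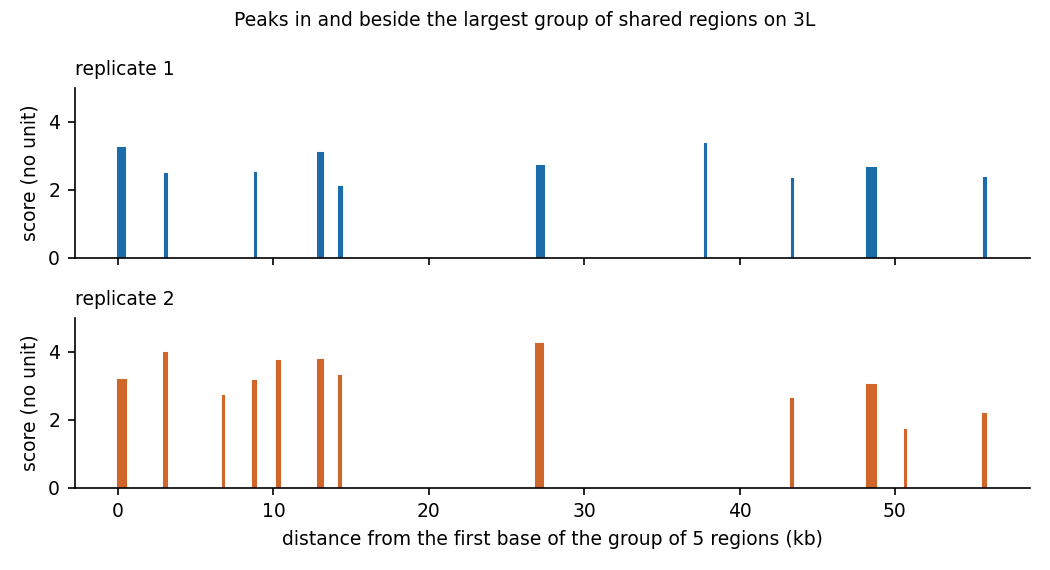
Bars give the score (y axis, no unit) of each replicate peak in and beside the group of 5 shared regions on 3L, against the distance from the first base of the group in kb (x axis), with bar width showing peak width; the narrowest peaks are drawn as lines. Replicate 1 is above and replicate 2 below; the 5 shared regions lie within the first 14.4 kb, where replicate 2 has 2 further peaks with no partner in replicate 1.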

How the data were processed

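ORC2 ChIP-seq peaks of whole 0 to 24 h embryos were taken from 3 deposited lists, 1 per ChIP sample and 1 covering both. FlyBase release 5.1 is the build per the file headers, and peaks come from PeakSeq, which scores ChIP reads relative to control reads. The score of each peak was deposited by the authors with no unit, and the first and last base count from 1. No aligner, threshold or control is given in the sources used here. No reads were counted, so depth is unknown.

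Peaks were assigned to arms by midpoint. An arm's span was bounded by its outermost peaks over the 3 lists. Density was compared by two-sided exact binomial tests, shares by Wilson intervals and their differences by Newcombe intervals. Overlap meant at least 1 bp. Alternatives are given under the additional observations. The base value of scores, the midpoint split and the differences in spacing were added after the data were seen. The members and lists were chosen with earlier results of these data known. Regions named were the 10 highest and 5 widest shared regions, groups of 4 or more within 10 kb, the 3 highest unmatched peaks per replicate and those next to the limit. Any other region named was picked with its values in view. The functions were tested on simulated data. SciPy 1.17.1, pandas 2.3.3 and NumPy 2.4.6 ran under Python 3.11.15, and matplotlib 3.10.9 drew the plots.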

Additional observations from a re-analysis of the deposited data

How the results depend on the processing

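No density ratio of 3L against another arm, or against the 3 together, passed its threshold under any of the 56 alternatives, where ratios ran from 0.76 to 1.80. Not all of these are separate checks. Leaving 1 replicate out of the series-level list only returns the main ratios of the other replicate's list. Keeping only regions at least as wide as a read left the shared-region ratios against X and 2L unchanged. The ratio of 1.80 (1.17 to 2.80) was that of shared regions against 3R among those scoring above their list's median (exact binomial, adjusted p = 0.0502), a selection made on the undivided score. The same selection gave 1.37 against 3R (1.07 to 1.76) and 1.31 against 2L (1.004 to 1.70) in replicate 1. In replicate 2 it gave 0.76 against X (0.60 to 0.96). Among peaks at least as wide as a read, replicate 1 gave 1.20 against 3R (1.003 to 1.45). These intervals are unadjusted and leave out 1, but no adjusted p passed. All 10 alternatives for the difference in replicate agreement gave intervals that include 0, from -5.10 to 7.23 points. The share of 3L peaks met by the other replicate moved with the rule: in replicate 1 to 24.8% with at least 50% of the peak covered, 48.1% within 1 kb and 23.0% among the upper part by score, and in replicate 2 to 48.5% within 1 kb, 24.4% among the upper part and 44.0% among peaks at least as wide as a read. The upper part loses partners that score lower. The share of shared regions with a neighbour within 10 kb was 19.6% within 5 kb, and 47.3% to 48.9% in the lists of single replicates, which hold more peaks. Its difference from 2L, -22.2 points, was -24.6 within 5 kb, -16.9 within 20 kb and -10.9 with regions within 1 kb joined. Of these, only the interval of the last included 0. The median width of replicate 1 peaks was 103 bp among the upper part. Divided by the base of the arm, the difference in median score, 3L minus the other arm, turned to -0.043 against 3R in replicate 1, and to -0.00044 against 2L and -0.00043 against 3R in replicate 2, where the arms are then level. The difference in the share beyond the midpoint, 3L minus the other arm, lost its call without the most crowded window of 3L at 5.30 points against X in replicate 1, 5.87 against 3R in replicate 2 and 13.1 against 2L among shared regions, and with peaks within 1 kb joined at 7.59 against X in replicate 1 and 7.75 against 3R in replicate 2. Leaving out that window takes centromere-side peaks from 3L alone, so its share had to fall. Fewer peaks are counted under both alternatives, and whether this bears on the lost calls was not tested. With the windows moved by 0.5 Mb, the highest held 26 peaks of replicate 1, 32 of replicate 2 and 16 shared regions, and r was 0.69. No paired analysis was possible because the input samples had no file here. Without read counts, no value can be weighed by depth.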

Other observations

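On 3L, replicate agreement was lower among high scores in replicate 1, while in replicate 2 the interval of the difference includes 0; this was a pattern noticed in the data and then measured on them. In replicate 1, 39 of the 128 peaks above the 3L median score had a partner in replicate 2 (30.5%), against 58 of 130 in the lower part (44.6%), a difference of -14.1 points (Newcombe interval -25.4 to -2.33). In replicate 2, 55 of the 131 upper peaks had a partner in replicate 1 (41.98%), against 43 of 131 lower ones (32.8%), a difference of 9.16 points (-2.53 to 20.5). The same difference was measured on X, 2L and 3R pooled, each split at its own median. It was -7.99 points in replicate 1 (-14.8 to -1.04) and -6.65 points in replicate 2 (-12.9 to -0.32). Lower agreement among high scores was thus present in the pooled arms in both replicates. On X, 2L and 3R taken singly, the difference was negative except on 2L in replicate 1, but most intervals included 0. Of the single arms in replicate 1, the interval left out 0 only on 3R, at -15.1 points (-25.7 to -3.92). It included 0 on X (-8.89, -20.6 to 3.15) and on 2L (0.773, -11.8 to 13.4), where the difference had the opposite sign. In replicate 2 the intervals of X (-4.01, -15.0 to 7.17), 2L (-7.04, -18.3 to 4.48) and 3R (-8.73, -18.6 to 1.38) each included 0. The difference between 3L and the pooled arms was -6.15 points in replicate 1 (-19.4 to 7.50) and 15.8 in replicate 2 (2.51 to 28.8). Only the interval of replicate 2 left out 0. Against single arms in replicate 2, it left out 0 for 3R (17.9 points, 2.43 to 32.9) and included 0 for X (13.2, -3.01 to 29.0) and 2L (16.2, -0.21 to 32.2). Splitting each arm at its own median keeps the base of the arm out of this comparison. Peak width, with which agreement rose, was not held fixed. Among 3L peaks above the median score of their list, the median width was 103 bp in replicate 1, against 130 bp over all 3L peaks. In replicate 2 it was 100 bp, against 94.5 bp. Whether width bears on the difference by score was not tested.

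Within the limit on 3L, shared regions had a density of 4.76 per Mb and a median score of 2.36, against 4.10 per Mb and 2.27 for the 10 regions beyond it; this difference was not tested. The replicate 1 peaks beyond it numbered 9.01 per Mb and those of replicate 2 numbered 11.9 per Mb.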
